A study of Arabidopsis thaliana with 18 samples.

Results

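How the transcript response to estradiol-induced PAD4 altered between 12 h and 24 h after spraying was measured as a difference of effects, the log2 ratio of estradiol to mock at 24 h minus the same ratio at 12 h. The members are the 12 libraries of these times, out of 18 in the series, and were chosen by their labelled treatment and time. All plants were of the Arabidopsis thaliana line ED-P4E1, in which PAD4 is driven by an estradiol-inducible promoter and EDS1 by the 35S promoter in the eds1-2 pad4-1 double mutant of the Col-0 ecotype, so the mock-treated leaves carry both transgenes and both mutations too. Plants 4 weeks old, kept at 22 °C with 10 h of light a day, received a spray of estradiol (10 µM) or of mock solution (0.2% DMSO), and both sprays held 0.01% of the wetting agent silwet. The 4 groups were mock at 12 h, estradiol at 12 h, mock at 24 h and estradiol at 24 h, with 3 libraries each. The labels do not give separate plants for the replicates, so that p-values measure the spread between these libraries, which may be technical. Plants without the PAD4 transgene that received estradiol were not analysed here, so the effect of estradiol itself and that of PAD4 cannot be told apart.

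EDS1 and its partner PAD4, both related to lipases, form a complex in the leaf cell that passes on signals from intracellular receptors with a TIR domain. Their complex promotes synthesis of salicylic acid (SA), the hormone that activates NPR1-dependent defence genes, and of N-hydroxypipecolic acid (NHP), a signal of systemic immunity. Many of these defence genes are also under daily rhythm, and the hours of the day at which leaves were taken are not given in the labels. In bulk leaf samples, fewer cells of a type and less RNA per cell cannot be told apart.

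Reads assigned to genes ranged from 19066152 to 48066561 per library over the 12 libraries (levels are given as CPM, counts scaled to library size with TMM factors). At these depths 3 counts, taken as the floor of detection for counting error only, were worth 0.0624 to 0.157 CPM in single libraries before that scaling. Mesophyll markers such as RBCS1A and RCA were high in every library, at a summed 20961 to 80166 CPM over 7 genes. The meristem and flower markers STM, WUS, CLV3 and LFY had no read in any of the 12 libraries, and the 10 markers of that list together were at 0.695 to 2.93 CPM. PAD4 (AT3G52430), the induced gene, was high in every estradiol library. PAD4 was at 15.8, 16.2 and 16.2 CPM in the mock libraries at 12 h and at 17.1, 16.1 and 20.9 CPM at 24 h. PAD4 in the estradiol libraries was at 295, 275 and 354 CPM at 12 h and at 364, 244 and 149 CPM at 24 h. The groups did not overlap at either time, and the PAD4 effect was not called as altered between the times (−0.44 ± 0.37 SE, adjusted p 0.725; such values are the log2 change of effect throughout). EDS1 (AT3G48090) was abundant in both treatments, at 2343 ± 649 and 2090 ± 647 CPM at 12 h and 4342 ± 373 and 4321 ± 652 CPM at 24 h in mock and estradiol (mean ± SD, n = 3), with no call for the change (0.16 ± 0.29 SE, adjusted p 0.905). Counts per locus do not separate the transgenes from the mutated chromosomal genes.

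The effect of estradiol, as a log2 ratio to mock, grew from 12 h to 24 h in far more genes than it faded. Of 19227 genes tested, 356 (1.85%) had a more positive effect at 24 h and 51 (0.265%) a more negative one, by edgeR's quasi-likelihood test with a Benjamini-Hochberg adjusted p below 0.05. Together these were 2.12% of the genes tested, and the median change over all genes was 0.0027 on the log2 scale. Of the 356 genes, 323 were called higher under estradiol at 24 h and not lower at 12 h, so their rise was larger at the later time. Their median effect was 0.36 at 12 h and 1.45 at 24 h (log2). Of the remaining called genes, 32 had a fall at 24 h that was larger than at 12 h or new, 31 of them called at 24 h only. A further 30 had a fall at 12 h that was smaller or absent at 24 h, and 12 had a rise at 12 h that was smaller or absent at 24 h. Another 7 were called in opposite directions at the 2 times and 3 were called at neither time. Median effects at 12 h and 24 h were 0.091 and −0.47 for larger falls, −0.60 and 0.020 for smaller falls, and 0.38 and −0.15 for smaller rises. These classes rest on the call at 1 time and the sign of the change. The order of the 2 medians within each class of larger or smaller effects is therefore fixed by the choice of genes. The 24 h libraries enter both the 24 h call and the change. Chance spread at 24 h thus moves both in the genes whose effect became larger. The count of more positive changes was 204 without mock replicate 2 of 24 h, the deepest library, 209 without estradiol replicate 1 of 24 h and 236 without mock replicate 3 of 12 h. The larger rises were 188 without the first of these libraries and 199 without the second. The count of more negative changes was 82 without mock replicate 1 of 24 h and 26 to 32 without mock replicate 1 or 3 or estradiol replicate 1 of 12 h, or mock replicate 2 or estradiol replicate 1 or 3 of 24 h. DESeq2 gave 88 more negative changes.

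**Figure D1:**
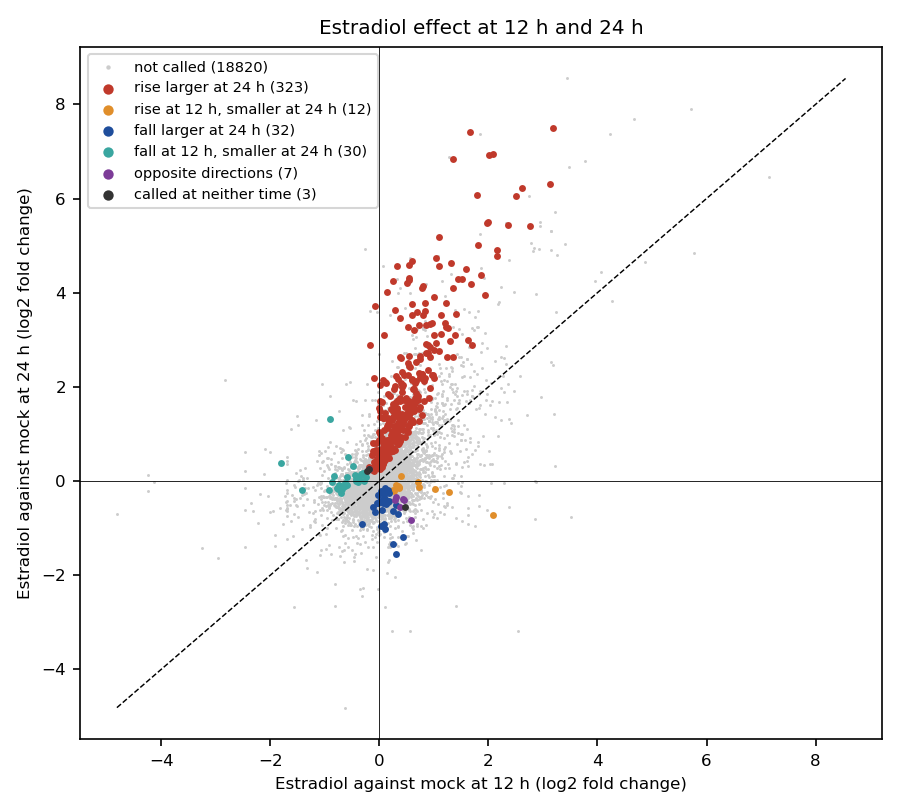
Each point is a gene, with its log2 fold change of estradiol against mock at 12 h (x axis) and at 24 h (y axis); colours mark the genes called for the change of effect and the dashed line marks equal effects. By definition the 323 genes whose rise was larger at 24 h lie above the line, and the 51 genes with a more negative change lie below it.

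The calls at single times gave a different picture from the test of the difference. At 12 h, 9.71% of the genes tested were called under estradiol, 4.64% higher and 5.07% lower, and at 24 h 15.0% were, 8.43% higher and 6.54% lower. The 892 higher and 975 lower genes of 12 h numbered 270 and 281 without estradiol replicate 1 of that time, and without single mock replicates of 12 h the higher ones numbered 432 to 582 and the lower ones 510 (replicate 3) and 544 (replicate 2). The 1257 lower genes of 24 h numbered 551 without mock replicate 2, 837 without estradiol replicate 1 and 703 without estradiol replicate 3 of that time. Of the 586 genes called higher at both times, 161 had a larger rise at 24 h and none a smaller one in the test of the difference. Of the 1033 genes called higher at 24 h but not at 12 h, 162 were called for the change. Of the 300 genes called higher at 12 h but not at 24 h, 12 were called for the change, so for the other 288 a loss of the effect was not shown. Among falls, 31 of the 905 genes called lower at 24 h alone and 29 of the 628 called lower at 12 h alone were called for the change. Of the 346 genes lower at both times, 1 had a larger and 1 a smaller fall at 24 h. The 12 h libraries enter both the 12 h call and the change, so chance spread at 12 h moves both in the genes whose effect became smaller.

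Most of the larger rises came with a decline in the mock leaves. Of the 323 genes, 291 were lower at 24 h than at 12 h in mock leaves, where 75.0% of all genes tested were called, 35.9% higher and 39.1% lower. Under estradiol, where 73.7% of all genes were called, 35.0% higher and 38.7% lower, 197 of the 323 were also lower at 24 h, 64 were higher and 62 were not called. The median course from 12 h to 24 h of these genes was −1.73 in mock and −0.62 in estradiol-treated leaves (log2). The mock libraries enter both the change of effect and the mock course, so that the direction of the mock course is in part fixed by the choice of genes. As a difference in CPM, estradiol minus mock, the effect was larger at 24 h than at 12 h in 278 of the 323 genes and smaller in 45, a count chosen after seeing the data. Hours after spraying and time of day cannot be told apart in this design. Of 11 morning clock genes none was called for the change, beside 2.12% of all genes. Their median rise from 12 h to 24 h was 8.68 in mock and 8.69 in estradiol-treated leaves (log2).

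**Figure D2:**
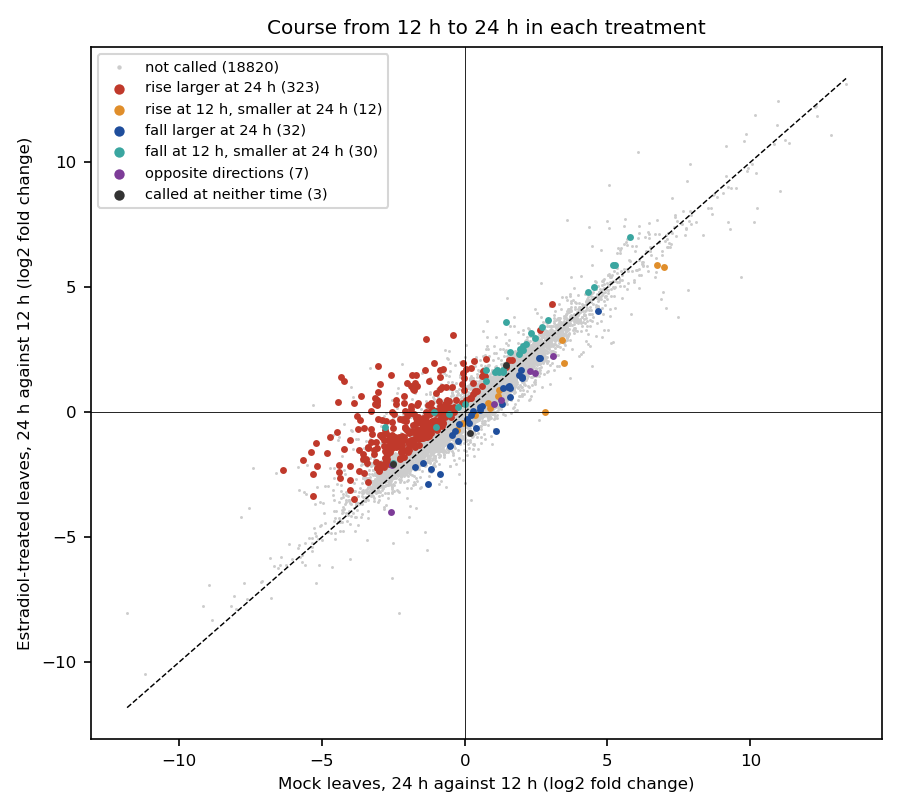
Each point is a gene, with its log2 fold change from 12 h to 24 h in mock leaves (x axis) and in estradiol-treated leaves (y axis); the dashed line marks the same course in both. By definition the 323 genes with a larger rise at 24 h lie above the line, and 291 of them had a called decline in mock leaves.

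SA response genes had larger rises at 24 h in many members. Of 24 tested, 12 had a more positive effect at 24 h and none a more negative one, beside 1.85% and 0.265% of all genes, and the median change was 1.32 against 0.0027 over all genes tested (log2). At single times, 19 of the 24 were higher at 12 h (4.64% of all genes) and 21 at 24 h (8.43%). The 12 changes numbered 5 without mock replicate 2 of 24 h, 6 without estradiol replicate 1 of 24 h and 7 without estradiol replicate 3 of 24 h or estradiol replicate 2 of 12 h.

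NIMIN1 (AT1G02450), which encodes a protein that binds the SA receptor NPR1, had 1 of the most positive changes. NIMIN1 was at 1.04, 0.331 and 1.52 CPM in the mock libraries at 12 h and at 0.076, 0.0262 and 0.0402 CPM at 24 h. NIMIN1 in the estradiol libraries was at 2.68, 3.53 and 3.21 CPM at 12 h and at 9.27, 7.42 and 8.27 CPM at 24 h. The mock libraries of 24 h held 4 NIMIN1 reads in all and the estradiol libraries 549, and the treatments did not overlap at either time. No mock library of 24 h held more than the floor of 3 NIMIN1 reads. Scaled for library size, the ratio of these summed reads was 189, with an exact 95% interval of 73.3 to 695 that covers counting error only. Its fitted effect went from 1.66 at 12 h to 7.41 at 24 h (5.75 ± 0.68 SE, adjusted p 6.07e-05). NIMIN2 (AT3G25882), a relative that also binds NPR1, was at 2.47 ± 0.571 in mock and 6.22 ± 0.227 CPM in estradiol at 12 h, and at 0.707 ± 0.119 and 17.4 ± 1.57 CPM at 24 h (3.32 ± 0.26 SE, adjusted p 4.51e-07). Both genes fell in mock leaves and rose further in estradiol-treated leaves between the times.

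PR1 (AT2G14610), a secreted antimicrobial protein and the usual marker of SA action, was low at 12 h even under estradiol. PR1 was at 0.253, 0.301 and 0.711 CPM in the mock libraries at 12 h and at 0.456, 0.0523 and 0.0402 CPM at 24 h. PR1 in the estradiol libraries was at 2.599, 7.12 and 2.57 CPM at 12 h and at 31.4, 27.6 and 34.7 CPM at 24 h. Under estradiol every 24 h library was above every 12 h library, and mock replicate 1 held most of the PR1 reads of the 24 h mock group. Its effect went from 3.18 at 12 h to 7.50 at 24 h (4.32 ± 0.97 SE, adjusted p 0.0336). The PR1 call was lost without mock replicates 2 or 3 of 12 h or mock replicates 2 or 3 or estradiol replicates 1 or 3 of 24 h (adjusted p 0.0592 to 0.272). PR2 (AT3G57260), a beta-glucanase, rose from 14.6 ± 3.66 to 48.8 ± 8.29 CPM in the estradiol group and was at 4.57 ± 0.491 and 2.80 ± 0.967 CPM in mock (2.49 ± 0.46 SE, adjusted p 0.00531). PR5 (AT1G75040), a thaumatin-like protein, had an effect of 0.53 at 12 h and 1.16 at 24 h with no call for the change (0.64 ± 0.19 SE, adjusted p 0.117), although DESeq2 called it (adjusted p 0.0401), as did the main test without mock replicate 1 of 24 h (0.0237).

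Among the WRKY transcription factors of the SA response, WRKY54 (AT2G40750) and WRKY70 (AT3G56400) are close relatives. WRKY54 was at 12.5, 7.34 and 18.3 CPM in the mock libraries at 12 h and at 2.39, 0.654 and 1.57 CPM at 24 h. WRKY54 in the estradiol libraries was at 25.8, 27.6 and 25.8 CPM at 12 h and at 45.2, 31.4 and 38.7 CPM at 24 h. The WRKY54 mock libraries of 24 h all lay below those of 12 h, and the estradiol libraries above, though the estradiol course was not called (3.70 ± 0.47 SE, adjusted p 0.000145). WRKY70 in mock leaves was at 57.2 ± 23.0 and 56.3 ± 14.98 CPM at 12 h and 24 h, and was at 136 ± 7.81 CPM at 12 h and 348 ± 59.9 CPM at 24 h in estradiol-treated leaves (1.39 ± 0.35 SE, adjusted p 0.0445). The WRKY70 call was lost without mock replicates 1 or 3 or estradiol replicates 1, 2 or 3 of 12 h or mock replicates 1 or 2 or estradiol replicates 1 or 3 of 24 h (adjusted p 0.0636 to 0.148). The remaining 6 called members of the list were WRKY38, WRKY46, WRKY50, WRKY53, the glutaredoxin gene GRX480 and the ankyrin protein gene ACD6, with changes from 1.00 (ACD6) to 4.86 (WRKY38) on the log2 scale. For WRKY38 the difference in CPM, estradiol minus mock, was 1.92 at 12 h and 3.23 at 24 h. With so small a difference, a change of 4.86 implies few WRKY38 reads in mock at 24 h.

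**Figure D3:**
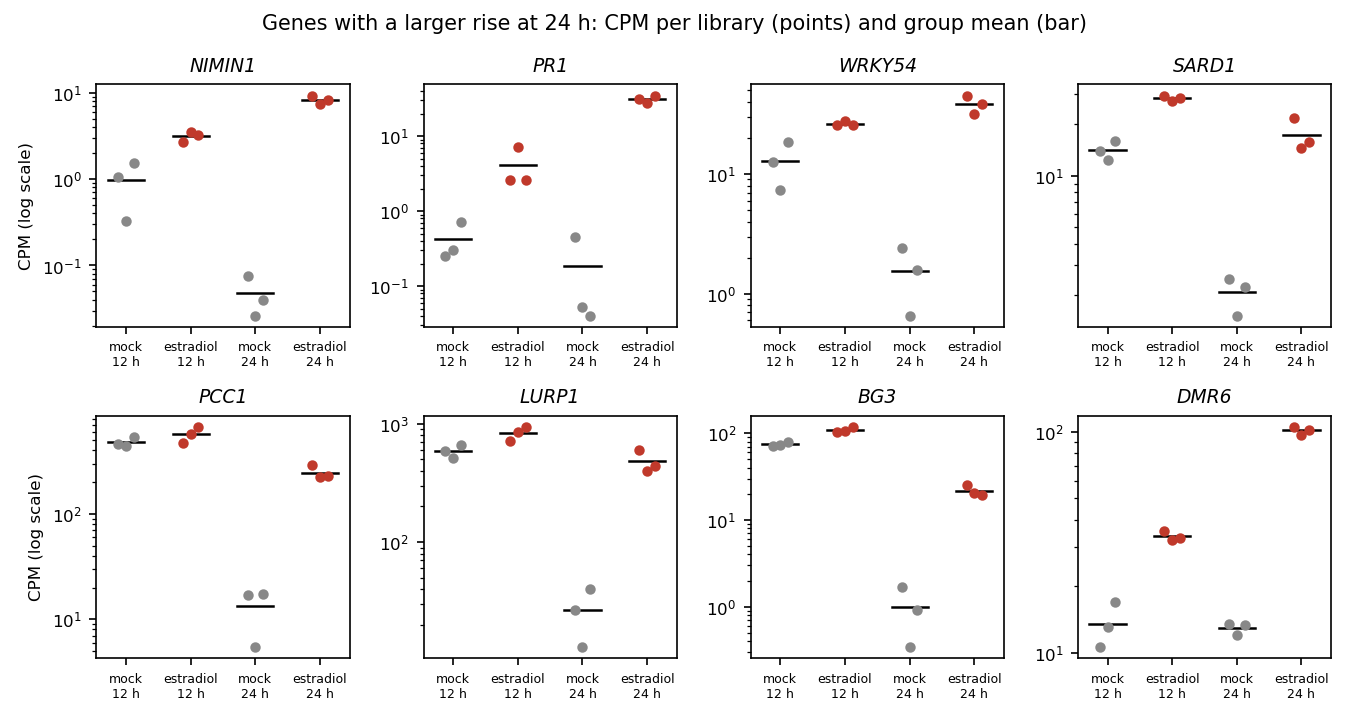
CPM on a log scale for 8 genes with a larger rise at 24 h, in mock (grey) and estradiol-treated leaves (red) at 12 h and 24 h; points are libraries and bars are means of 3. NIMIN1, PR1 and DMR6 rose further under estradiol, WRKY54 fell in mock, while PCC1, BG3 and SARD1 fell in both treatments and LURP1 fell in mock.

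Among the genes of SA synthesis, 2 regulators and no enzyme were called for the change. SARD1 (AT1G73805) and CBP60g (AT5G26920), related transcription factors that activate the SA synthesis gene ICS1, had a more positive effect at 24 h. These were 2 of the 10 list members tested, and no member had a more negative one, beside 1.85% and 0.265% of all genes. The list's median change was −0.024. SARD1 was at 14.0, 12.4 and 15.9 CPM in the mock libraries at 12 h and at 2.51, 1.52 and 2.25 CPM at 24 h. SARD1 in the estradiol libraries was at 29.4, 27.2 and 28.6 CPM at 12 h and at 21.7, 14.5 and 15.7 CPM at 24 h. Mock levels of SARD1 at 24 h all lay below those of 12 h, whereas the estradiol libraries of 24 h overlapped the mock libraries of 12 h (2.08 ± 0.28 SE, adjusted p 0.000231). CBP60g went from 8.52 ± 0.554 to 2.01 ± 0.0624 CPM in mock and from 12.3 ± 3.54 to 12.7 ± 1.31 CPM in estradiol-treated leaves (2.13 ± 0.27 SE, adjusted p 0.000145). ICS1 (AT1G74710), isochorismate synthase, rose in both treatments, from 4.998 ± 0.342 to 10.4 ± 0.742 CPM in mock and from 11.7 ± 3.39 to 35.1 ± 1.62 CPM in estradiol, and its effect of 1.23 at 12 h and 1.76 at 24 h had no call for the change (0.53 ± 0.21 SE, adjusted p 0.289). PBS3 (AT5G13320), which conjugates isochorismate to glutamate, likewise was at 1.04 ± 0.234 and 7.93 ± 0.184 CPM in mock and 4.17 ± 1.23 and 24.4 ± 3.04 CPM in estradiol (−0.41 ± 0.25 SE, adjusted p 0.570). EDS5 (AT4G39030), the chloroplast exporter of the SA precursor, had an effect of 0.65 at 12 h and 0.64 at 24 h (−0.0096 ± 0.34 SE, adjusted p 0.998).

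Of 8 genes of SA conjugation and breakdown, DMR6 and DLO1 had a more positive effect at 24 h and none a more negative one, beside 1.85% and 0.265% of all genes. DMR6 (AT5G24530), an SA hydroxylase, rose further under estradiol between the times and was not called in mock. DMR6 was at 10.6, 13.1 and 17.0 CPM in the mock libraries at 12 h and at 13.6, 12.1 and 13.3 CPM at 24 h. DMR6 in the estradiol libraries was at 35.4, 32.4 and 33.2 CPM at 12 h and at 105, 96.8 and 102 CPM at 24 h. All 3 estradiol libraries of 24 h lay above all 3 of 12 h, while the mock libraries overlapped between the times (1.66 ± 0.21 SE, adjusted p 0.000115). DLO1 (AT4G10500), a second SA hydroxylase, was at 0.201 ± 0.177 and 0.171 ± 0.103 CPM in mock and 0.857 ± 0.222 and 7.27 ± 1.296 CPM in estradiol (3.51 ± 0.75 SE, adjusted p 0.0157). The DLO1 call was lost with limma-voom (adjusted p 0.171) and without mock replicates 2 or 3 of 12 h or mock replicate 2 of 24 h (adjusted p 0.0690 to 0.198). UGT76B1 (AT3G11340), a glucosyltransferase of SA and NHP, had 117 mock reads and 1494 estradiol reads at 12 h and 6 and 489 at 24 h, with no call for the change (3.19 ± 1.19 SE, adjusted p 0.247).

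None of the 3 pipecolic acid and NHP genes was called for the change, beside 2.12% of all genes. All 3 were higher under estradiol at 12 h (4.64% of all genes) and at 24 h (8.43%). ALD1 (AT2G13810), the aminotransferase of the first step, had 9 mock and 145 estradiol reads at 12 h and 1 and 114 at 24 h, and the 24 h ratio was 157 with an exact 95% interval of 27.6 to 6246. FMO1 (AT1G19250), the NHP-forming monooxygenase, had 2 mock and 79 estradiol reads at 12 h, a ratio of 36.5 (9.77 to 306), and 3 and 63 at 24 h, a ratio of 28.9 (9.44 to 144). The FMO1 intervals overlap and all cover counting error only. FMO1 under estradiol at 24 h was at 2.01, 0.487 and 0.211 CPM, so most of its reads came from replicate 1.

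Several defence transcripts fell in mock leaves and fell less, or were not called as lower, under estradiol. PCC1 (AT3G22231), named for control by pathogens and the circadian clock, is one of them. PCC1 was at 462, 441 and 537 CPM in the mock libraries at 12 h and at 17.1, 5.42 and 17.4 CPM at 24 h. PCC1 in the estradiol libraries was at 474, 575 and 668 CPM at 12 h and at 289, 223 and 227 CPM at 24 h. At 12 h the PCC1 treatments overlapped, whereas at 24 h every estradiol library was above every mock library (3.99 ± 0.43 SE, adjusted p 2.33e-05). LURP1 (AT2G14560), required for defence against an oomycete, was the more abundant of the pair. LURP1 was at 592, 508 and 657 CPM in the mock libraries at 12 h and at 26.6, 12.9 and 39.9 CPM at 24 h. LURP1 in the estradiol libraries was at 714, 852 and 935 CPM at 12 h and at 598, 402 and 441 CPM at 24 h. The LURP1 estradiol libraries of 24 h overlapped the mock libraries of 12 h and lay far above the mock libraries of 24 h (3.69 ± 0.58 SE, adjusted p 0.00122). BG3 (AT3G57240), a beta-glucanase, fell in both treatments. BG3 was at 72.1, 72.5 and 79.1 CPM in the mock libraries at 12 h and at 1.67, 0.34 and 0.924 CPM at 24 h. BG3 in the estradiol libraries was at 103, 105 and 118 CPM at 12 h and at 25.4, 20.4 and 19.4 CPM at 24 h. In CPM the BG3 difference between treatments was smaller at 24 h than at 12 h, although the ratio was larger (4.05 ± 0.29 SE, adjusted p 1.50e-07).

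The remaining genes with the most positive changes were of mixed function. NUDT6 (AT2G04450), a Nudix hydrolase, was at 7.62 ± 0.402 and 16.3 ± 0.624 CPM at 12 h and 0.984 ± 0.167 and 35.3 ± 1.93 CPM at 24 h in mock and estradiol (4.09 ± 0.25 SE, adjusted p 5.19e-08). PCR1 (AT1G14880), of the plant cadmium resistance family, changed by 3.76 ± 0.27 SE, adjusted p 1.50e-07. PCR1 had 19570 mock and 30260 estradiol reads at 12 h and 311 and 4677 at 24 h. Its difference in CPM, estradiol minus mock, was smaller at 24 h (66.4) than at 12 h (82.6), although the ratio was larger. The serine carboxypeptidase-like gene scpl16 (AT3G12220) was not called at 12 h, at 13.8 ± 1.56 against 13.1 ± 2.86 CPM, and was at 0.356 ± 0.324 against 4.33 ± 0.817 CPM at 24 h (3.80 ± 0.44 SE, adjusted p 5.26e-05). SIB1 (AT3G56710), a partner of WRKY33, had an effect of 1.34 at 12 h and 4.09 at 24 h (2.75 ± 0.27 SE, adjusted p 8.17e-06). SDR3 (AT2G47130), a short-chain dehydrogenase, had one of 0.63 at 12 h and 3.20 at 24 h (2.58 ± 0.28 SE, adjusted p 2.33e-05).

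Of 41 surface receptors, MAP kinases and oxidases, 10 had a more positive effect at 24 h and none a more negative one, beside 1.85% and 0.265% of all genes, and 31 were not called. The median change of the list was 0.19. RLP23 (AT2G32680), a receptor-like protein that recognises a peptide of microbial NLP toxins, had the largest change of the list. RLP23 was at 9.81, 10.4 and 9.86 CPM in the mock libraries at 12 h and at 3.19, 1.94 and 3.25 CPM at 24 h. RLP23 in the estradiol libraries was at 22.7, 13.4 and 17.65 CPM at 12 h and at 43.9, 29.6 and 37.5 CPM at 24 h. Mock RLP23 fell at 24 h and estradiol libraries rose, with no overlap between treatments at either time (2.93 ± 0.30 SE, adjusted p 1.00e-05). SOBIR1 (AT2G31880), the co-receptor kinase of RLP23, was at 89.1 ± 2.48 and 152 ± 18.1 CPM at 12 h and 28.7 ± 3.54 and 131 ± 16.4 CPM at 24 h (1.43 ± 0.14 SE, adjusted p 8.17e-06). BIR1 (AT5G48380), a kinase that restrains SOBIR1 and BAK1 signalling, changed by 1.00 ± 0.11 SE, adjusted p 2.97e-05, and the MAP kinase MPK11 (AT1G01560) by 2.38 ± 0.31 SE, adjusted p 0.000177. RLP41 (AT3G25010), of the same receptor-like protein family as RLP23, had an effect of 1.22 at 12 h and 3.78 at 24 h (2.56 ± 0.19 SE, adjusted p 1.50e-07).

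Cysteine-rich receptor kinases, many of which lie in a cluster of similar genes so that reads may be shared, had 9 more positive and 1 more negative change among 34 tested, beside 1.85% and 0.265% of all genes, with a median of 0.64. CRK6 (AT4G23140) was at 13.2 ± 1.94 and 34.4 ± 6.86 CPM at 12 h and 3.90 ± 0.74 and 32.97 ± 4.36 CPM at 24 h in mock and estradiol (1.72 ± 0.22 SE, adjusted p 0.000155). CRK45 (AT4G11890) had an effect of 1.23 at 12 h and 3.28 at 24 h (2.05 ± 0.29 SE, adjusted p 0.000464), and CRK9 (AT4G23170) and CRK40 (AT4G04570) changed by 0.94 and 0.48. The exception was CRK17 (AT4G23250), whose effect went from 0.41 at 12 h to 0.097 at 24 h (−0.31 ± 0.075 SE, adjusted p 0.0368). The CRK17 call was lost without the filter on low counts (adjusted p 0.0512), with only the 12 libraries in the fit (0.135), and without mock replicates 1 or 2 or estradiol replicates 2 or 3 of 12 h or mock replicates 1 or 3 or estradiol replicates 2 or 3 of 24 h (adjusted p 0.0564 to 0.112). Of 7 wall-associated kinases, which link the wall to the plasma membrane, 3 had a more positive effect, beside 1.85% of all genes. WAK1 (AT1G21250) was at 429.6 ± 37.5 and 683 ± 16.9 CPM at 12 h and 165 ± 42.0 and 564 ± 70.6 CPM at 24 h (1.11 ± 0.23 SE, adjusted p 0.0119), and its neighbour WAK2 (AT1G21270) changed by 0.87 ± 0.15 SE, adjusted p 0.00234. WAKL6 (AT1G16110) changed by 1.11 ± 0.25 SE, adjusted p 0.0212. The WAKL6 call was lost without mock replicate 3 or estradiol replicate 2 of 12 h or mock replicate 2 or estradiol replicate 1 of 24 h (adjusted p 0.0530 to 0.0814).

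Of 6 EDS1 partners and helper NLRs, 2 had a more positive effect, beside 1.85% of all genes. ADR1-L1 (AT4G33300), a helper NLR that acts with EDS1 and PAD4, was at 70.1 ± 0.637 and 98.9 ± 4.18 CPM at 12 h and 21.7 ± 3.29 and 57.3 ± 9.81 CPM at 24 h (0.92 ± 0.14 SE, adjusted p 0.00112). AT5G66910 changed by 0.88 ± 0.16 SE, adjusted p 0.00595. Of 17 sensor NLRs, ZAR1 (AT3G50950) alone was called, beside 2.12% of all genes (0.46 ± 0.12 SE, adjusted p 0.0445). The ZAR1 call was lost with DESeq2 size factors (adjusted p 0.0501) and without mock replicates 1, 2 or 3 or estradiol replicates 1, 2 or 3 of 12 h or mock replicates 1 or 2 or estradiol replicates 1 or 3 of 24 h (adjusted p 0.0589 to 0.144). Of 11 genes of secretion and callose at penetration sites, EXO70B2 (AT1G07000), an exocyst subunit, alone was called, beside 2.12% of all genes. Its effect was 0.25 at 12 h and 1.48 at 24 h (1.24 ± 0.12 SE, adjusted p 6.88e-06).

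Genes of protein folding in the endoplasmic reticulum (ER) held the largest number of called members of any list examined. The shorter SA response list held a larger share, 12 of 24. Of 28 ER folding genes tested, 13 had a more positive effect at 24 h and none a more negative one, beside 1.85% and 0.265% of all genes. At single times 13 were higher at 12 h (4.64% of all genes) and 21 at 24 h (8.43%), with a median effect of 0.31 and 0.83 (log2). CRT3 (AT1G08450), the calreticulin needed to fold the receptor EFR, showed it in every library. CRT3 was at 201, 205 and 203 CPM in the mock libraries at 12 h and at 36.0, 33.1 and 39.7 CPM at 24 h. CRT3 in the estradiol libraries was at 255, 242 and 269 CPM at 12 h and at 117, 95.9 and 98.8 CPM at 24 h. CRT3 declined in both treatments and by less under estradiol, and the treatments did not overlap at either time (1.19 ± 0.099 SE, adjusted p 1.01e-06). PDIL2-2 (AT1G04980), a disulfide isomerase, had an effect of 0.20 at 12 h and 1.81 at 24 h (1.61 ± 0.21 SE, adjusted p 0.000170), and PDIL1-1 (AT1G21750), another, one of 0.36 at 12 h and 1.31 at 24 h (0.95 ± 0.12 SE, adjusted p 7.73e-05). UTR1 (AT2G02810), a nucleotide sugar transporter of the ER, changed by 1.39 ± 0.20 SE, adjusted p 0.000411. Without any 1 library the count of more positive changes in this list ranged from 10 to 15.

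Of 15 cytosolic heat shock genes 2 had a more positive effect, beside 1.85% of all genes. HSP101 (AT1G74310), a disaggregase, rose in both treatments and more under estradiol, to 91.2 ± 15.9 against 50.4 ± 6.26 CPM (0.68 ± 0.17 SE, adjusted p 0.0456). ROF2 (AT5G48570), an immunophilin co-chaperone, was at 67.5 ± 16.5 against 26.7 ± 4.45 CPM at 24 h and 3.31 ± 0.453 against 3.17 ± 0.29 CPM at 12 h (1.27 ± 0.27 SE, adjusted p 0.0147). Both calls were lost with limma-voom (adjusted p 0.0927 and 0.0799). The HSP101 call was also lost without mock replicates 1, 2 or 3 or estradiol replicates 1, 2 or 3 of 12 h or mock replicates 1 or 3 or estradiol replicates 1 or 2 of 24 h (adjusted p 0.0549 to 0.132), and the ROF2 call without mock replicate 3 or estradiol replicate 2 of 12 h (adjusted p 0.0529 to 0.0681).

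**Figure D4:**
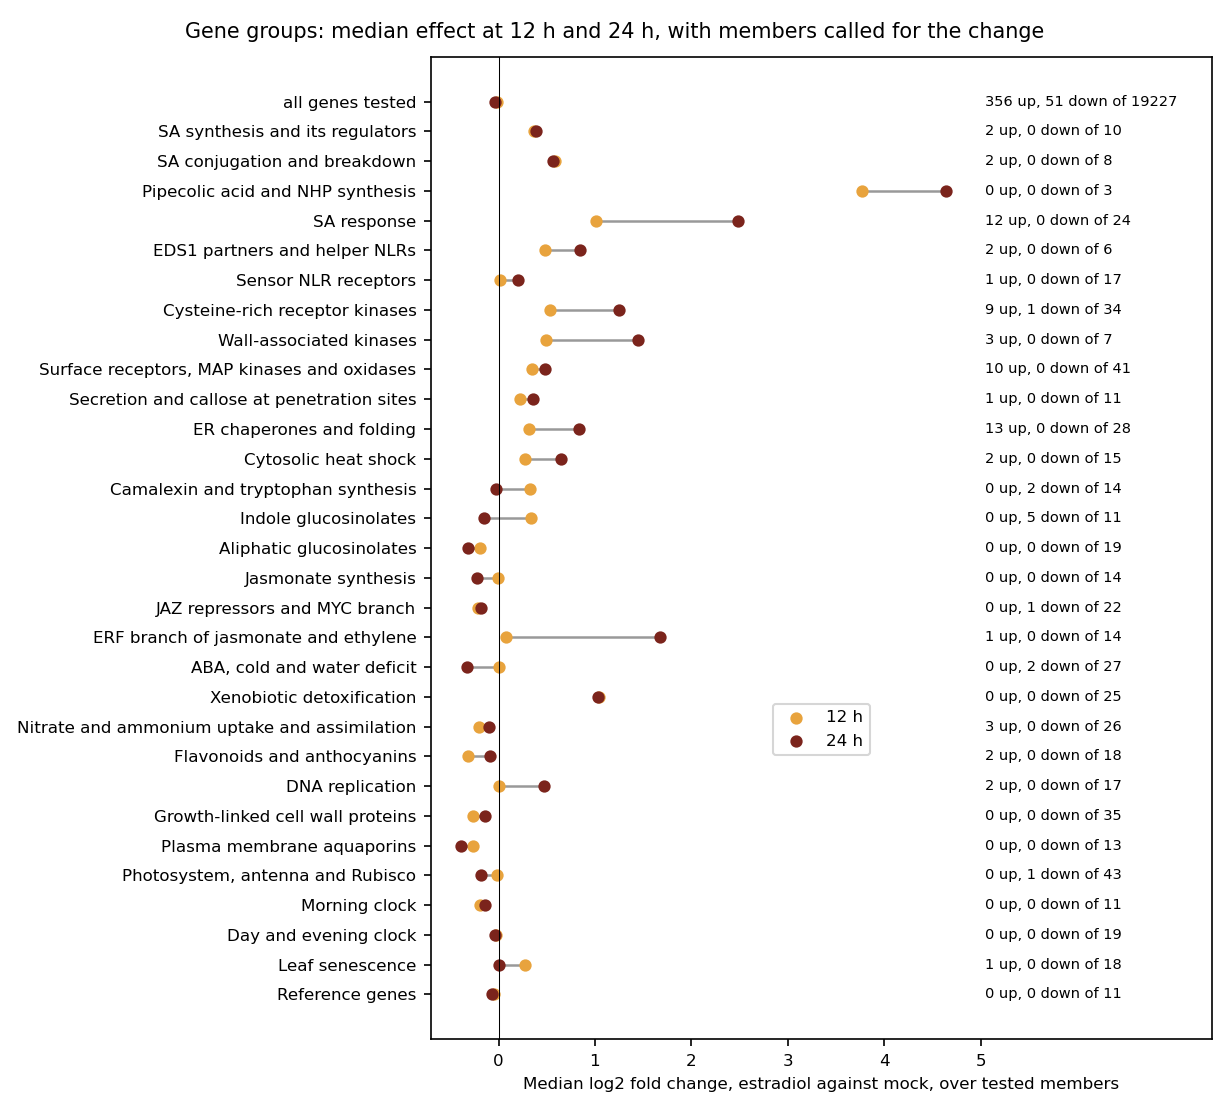
Median log2 fold change of estradiol against mock over the tested members of each gene group at 12 h and 24 h, with the number of members called for a more positive (up) or more negative (down) effect at 24 h; the first line gives all genes tested. SA response and ER folding genes show 12 of 24 and 13 of 28 members up, and indole glucosinolate genes 5 of 11 down.

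Among indole glucosinolate genes the calls were in the other direction. Of 11 tested genes 5 had a more negative effect at 24 h and none a more positive one, beside 0.265% of all genes, with a median change of −0.38. SOT16 (AT1G74100), a sulfotransferase of the last step, was higher under estradiol at 12 h and lower at 24 h. SOT16 was at 26.0, 23.6 and 24.5 CPM in the mock libraries at 12 h and at 121, 164 and 128 CPM at 24 h. SOT16 in the estradiol libraries was at 37.8, 28.9 and 29.1 CPM at 12 h and at 95.3, 96.2 and 90.7 CPM at 24 h. The treatments did not overlap at either time, with opposite order (−0.92 ± 0.16 SE, adjusted p 0.00262). CYP83B1 (AT4G31500), the P450 that commits tryptophan derivatives to these compounds, had the same pattern. CYP83B1 was at 157, 148 and 161 CPM in the mock libraries at 12 h and at 336, 425 and 368 CPM at 24 h. CYP83B1 in the estradiol libraries was at 230.4, 196 and 200.5 CPM at 12 h and at 296, 296 and 276 CPM at 24 h. CYP83B1 thus had an effect of 0.43 at 12 h and −0.38 at 24 h (−0.81 ± 0.16 SE, adjusted p 0.00773). UGT74B1 (AT1G24100), the glucosyltransferase of the pathway, had an effect of 0.04 at 12 h and −0.61 at 24 h (−0.65 ± 0.12 SE, adjusted p 0.00513), and MYB34 (AT5G60890), its regulator, one of −0.32 at 12 h and −0.91 at 24 h (−0.59 ± 0.13 SE, adjusted p 0.0237). The MYB34 call was lost without mock replicates 1 or 3 or estradiol replicate 3 of 12 h or estradiol replicate 1 of 24 h (adjusted p 0.0560 to 0.0743). The 5 calls numbered 3 without mock replicate 1 of 12 h or estradiol replicate 1 of 24 h.

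Of 14 genes of camalexin and of tryptophan supply, 2 were called, both more negative, beside 0.265% of all genes, with a median change of −0.30. CYP79B3 (AT2G22330), which turns tryptophan into the shared precursor, was not called at 12 h. CYP79B3 was at 41.4, 34.4 and 41.2 CPM in the mock libraries at 12 h and at 94.3, 148 and 107 CPM at 24 h. CYP79B3 in the estradiol libraries was at 40.0, 38.9 and 41.2 CPM at 12 h and at 61.0, 58.1 and 62.5 CPM at 24 h. Mock libraries rose at 24 h, replicate 2 the most, and the estradiol libraries by less, with no overlap at 24 h (−0.98 ± 0.19 SE, adjusted p 0.00874). ASA1 (AT5G05730), anthranilate synthase, had an effect of 0.26 at 12 h and −0.64 at 24 h (−0.90 ± 0.22 SE, adjusted p 0.0341). The ASA1 call was lost without mock replicates 1, 2 or 3 or estradiol replicates 1 or 2 of 12 h or mock replicate 2 or estradiol replicates 1, 2 or 3 of 24 h (adjusted p 0.0588 to 0.114). The jasmonate synthesis list held no call among 14 genes, beside 2.12% of all genes. In the JAZ and MYC list of 22 JAM2 (AT1G01260), a bHLH repressor, alone was called, beside the same share (−0.45 ± 0.11 SE, adjusted p 0.0420). The JAM2 call was lost without the low-count filter (adjusted p 0.0511), with only the 12 libraries (0.0894), and without mock replicates 1, 2 or 3 or estradiol replicates 1, 2 or 3 of 12 h or mock replicates 2 or 3 or estradiol replicates 1 or 2 of 24 h (adjusted p 0.0509 to 0.134). MYC2 (AT1G32640) was at 67.8, 169 and 84.0 CPM in the mock libraries of 24 h, replicate 2 being the highest, and had no call (−0.63 ± 0.46 SE, adjusted p 0.661). VSP2 (AT5G24770) and PDF1.2 (AT5G44420), outputs of the 2 jasmonate branches, had none either (0.53 ± 0.99 SE, adjusted p 0.908 and 2.13 ± 0.97 SE, adjusted p 0.381). ERF104 (AT5G61600), an ethylene response factor, was the 1 call among 14 genes of the ERF branch, beside 2.12% of all genes (1.64 ± 0.24 SE, adjusted p 0.000546).

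Cold and water-deficit genes included the most negative change among named genes with a mean of at least 1 on the log2 CPM scale. This was COR15A (AT2G42540), a chloroplast-stabilising protein of cold acclimation, which was not called at 12 h and was lower under estradiol at 24 h. COR15A was at 377, 352 and 196 CPM in the mock libraries at 12 h and at 123, 204 and 176 CPM at 24 h. COR15A in the estradiol libraries was at 405, 406 and 435 CPM at 12 h and at 63.8, 78.2 and 79.6 CPM at 24 h. At 24 h no estradiol library reached the lowest mock library; at 12 h mock replicate 3 stood below the others (−1.62 ± 0.27 SE, adjusted p 0.00253). Its neighbour and close homolog COR15B (AT2G42530), with which it may share reads, was higher at 12 h and lower at 24 h, with an effect of 0.58 at 12 h and −0.82 at 24 h (−1.41 ± 0.28 SE, adjusted p 0.0105). The COR15B call was lost without estradiol replicate 1 of 24 h (adjusted p 0.0534). These were 2 of 27 genes of the list, beside 0.265% of all genes, and its median change was −0.33. The list held 8 such calls without mock replicate 1 of 24 h, 1 without estradiol replicate 1 of 24 h and 5 with DESeq2. EXPA16 (AT3G55500), an expansin that loosens cell walls, was at 32.0 ± 2.78 and 38.2 ± 3.51 CPM at 12 h and 12.8 ± 5.20 and 5.27 ± 0.868 CPM at 24 h (−1.59 ± 0.30 SE, adjusted p 0.00657). BZO2H3 (AT5G28770), a bZIP factor of the starvation response, had an effect of 0.085 at 12 h and −0.91 at 24 h (−0.99 ± 0.16 SE, adjusted p 0.00167), and ENODL19 (AT4G12880), an early nodulin-like protein, one of 0.062 at 12 h and −0.47 at 24 h (−0.53 ± 0.093 SE, adjusted p 0.00314). The 32 genes with a larger fall at 24 h numbered 57 without mock replicate 1 of 24 h, 54 with DESeq2 and 16 to 19 without estradiol replicate 2 of 12 h or mock replicate 2 or estradiol replicate 1 or 3 of 24 h.

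Falls that were present at 12 h and smaller or absent at 24 h numbered 30 and included genes of nitrogen, starch and flavonoid metabolism. NRT1.1 (AT1G12110), a nitrate transporter and sensor, is an example. NRT1.1 was at 73.9, 87.1 and 75.4 CPM in the mock libraries at 12 h and at 301, 386 and 351 CPM at 24 h. NRT1.1 in the estradiol libraries was at 44.8, 48.8 and 45.8 CPM at 12 h and at 292, 319 and 313 CPM at 24 h. At 12 h every NRT1.1 estradiol library was below every mock library and at 24 h the treatments overlapped (0.59 ± 0.12 SE, adjusted p 0.0126). CT-BMY (AT4G17090), a chloroplast beta-amylase, was higher at 24 h in both treatments. CT-BMY was at 190.3, 195 and 228 CPM in the mock libraries at 12 h and at 1255, 1365 and 1422 CPM at 24 h. CT-BMY in the estradiol libraries was at 116, 146 and 143 CPM at 12 h and at 1568, 1370 and 1349 CPM at 24 h. The treatments did not overlap at 12 h and overlapped at 24 h. Its effect went from −0.60 at 12 h to 0.085 at 24 h (0.68 ± 0.14 SE, adjusted p 0.0144). The CT-BMY call was lost without mock replicate 3 of 12 h or estradiol replicate 1 of 24 h (adjusted p 0.0524 to 0.0530). GSTF12 (AT5G17220), needed for anthocyanin transport, had an effect of −1.81 at 12 h and 0.37 at 24 h (2.18 ± 0.50 SE, adjusted p 0.0260). The GSTF12 call was lost without mock replicate 2 or estradiol replicates 1 or 2 of 12 h or mock replicate 2 or estradiol replicate 3 of 24 h (adjusted p 0.0733 to 0.0915). UGT78D2 (AT5G17050), a flavonoid glucosyltransferase, had one of −0.34 at 12 h and 0.15 at 24 h (0.50 ± 0.12 SE, adjusted p 0.0311). The UGT78D2 call was lost without mock replicates 2 or 3 or estradiol replicates 1 or 2 of 12 h or mock replicates 1 or 3 or estradiol replicate 1 of 24 h (adjusted p 0.0576 to 0.101). TAT7 (AT5G53970), a tyrosine aminotransferase, changed by 0.47 ± 0.091 SE, adjusted p 0.00736, and WRKY3 (AT2G03340), a transcription factor, by 0.40 ± 0.075 SE, adjusted p 0.00602. SPA3 (AT3G15354), a repressor of light signalling, changed by 0.60 ± 0.13 SE, adjusted p 0.0228. The SPA3 call was lost without mock replicate 3 or estradiol replicate 1 of 12 h or mock replicates 1 or 2 or estradiol replicate 1 of 24 h (adjusted p 0.05004 to 0.0776). The 30 such genes numbered 6 to 18 without mock replicate 2 or 3 or estradiol replicate 1 or 2 of 12 h, or mock replicate 2 or 3 or estradiol replicate 1 or 3 of 24 h, and 52 with DESeq2.

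**Figure D5:**
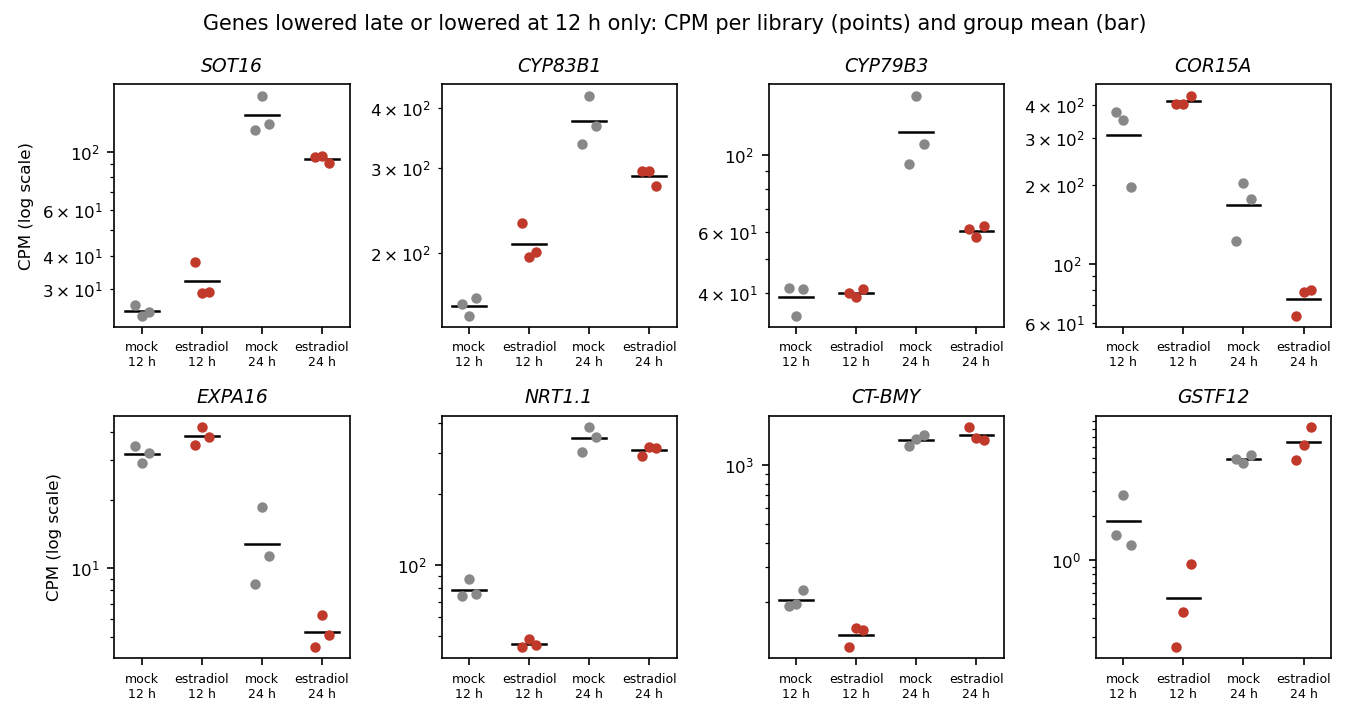
CPM on a log scale for 8 genes lowered late or lowered at 12 h only, in mock (grey) and estradiol-treated leaves (red); points are libraries and bars are means of 3. SOT16 and CYP83B1 change order between the times, and NRT1.1, CT-BMY and GSTF12 are lower under estradiol at 12 h but not at 24 h.

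The nitrogen list had 3 more positive changes among 26 genes, beside 1.85% of all genes: NRT1.1 and the ammonium transporters AMT2 (AT2G38290) and AMT1;1 (AT4G13510). AMT2 was at 51.2 ± 0.762 and 57.8 ± 4.51 CPM at 12 h and 7.83 ± 1.33 and 17.5 ± 2.84 CPM at 24 h (1.01 ± 0.15 SE, adjusted p 0.000811). AMT1;1 changed by 0.76 ± 0.18 SE, adjusted p 0.0319. The AMT1;1 call was lost without mock replicates 1 or 2 or estradiol replicates 1, 2 or 3 of 12 h or mock replicates 1 or 2 or estradiol replicates 1 or 3 of 24 h (adjusted p 0.0525 to 0.128). Of 17 DNA replication genes, the helicase subunits MCM4 (AT2G16440) and MCM2 (AT1G44900) were called, again beside 1.85% of all genes (0.66 ± 0.15 SE, adjusted p 0.0222, and 0.53 ± 0.13 SE, adjusted p 0.0374). Their number was 0 without mock replicate 3 of 12 h or mock replicate 2 or estradiol replicate 2 of 24 h, 4 without estradiol replicate 3 of 12 h, 6 without mock replicate 1 of 24 h and 6 with DESeq2. At 24 h 9 of the 17 were higher under estradiol (8.43% of all genes) and at 12 h none (4.64%). Mock levels of 16 of them declined between the times (39.1% of all genes). The MCM4 call was lost without mock replicate 3 of 12 h or mock replicate 2 or estradiol replicates 2 or 3 of 24 h (adjusted p 0.0537 to 0.0928). The MCM2 call was lost with only the 12 libraries in the fit (adjusted p 0.0568) and without mock replicates 1, 2 or 3 or estradiol replicates 1 or 2 of 12 h or mock replicates 2 or 3 or estradiol replicates 1 or 2 of 24 h (adjusted p 0.0565 to 0.141). SAG21 (AT4G02380), a late-embryogenesis-like protein of senescing leaves, was the 1 call among 18 senescence genes, beside 2.12% of all genes. Its effect was 0.62 at 12 h and 1.95 at 24 h (1.34 ± 0.25 SE, adjusted p 0.00544). SAG21 had 22786 mock and 38244 estradiol reads at 12 h and 1175 and 3301 at 24 h. Its difference in CPM, estradiol minus mock, was smaller at 24 h (37.3) than at 12 h (114), although the ratio was larger.

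Rises at 12 h that were smaller or absent at 24 h numbered 12, with a median change of −0.51 on the log2 scale. Their median effect was 0.38 at 12 h and −0.15 at 24 h. LEJ1 (AT4G34120), a chloroplast regulator of thioredoxins, was at 114 ± 4.39 and 141 ± 10.6 CPM at 12 h and 110.2 ± 1.74 and 104 ± 1.21 CPM at 24 h (−0.39 ± 0.073 SE, adjusted p 0.00595). YLS5 (AT2G38860), named for yellow leaves, had an effect of 0.71 at 12 h and −0.029 at 24 h (−0.74 ± 0.18 SE, adjusted p 0.0368). GSTF9 (AT2G30860), a glutathione transferase, had one of 0.26 at 12 h and −0.21 at 24 h (−0.47 ± 0.11 SE, adjusted p 0.0275). NDA1 (AT1G07180), a mitochondrial NADH dehydrogenase, had one of 0.72 at 12 h and −0.12 at 24 h (−0.85 ± 0.20 SE, adjusted p 0.0324). CAB2 (AT1G29920), an antenna protein whose near-identical copies may share reads, had one of 1.02 at 12 h and −0.16 at 24 h (−1.18 ± 0.30 SE, adjusted p 0.0469). It was the 1 call among 43 photosystem, antenna and Rubisco genes, a share near the 2.12% of all genes. Apart from LEJ1, each of these calls was lost without at least 1 library. YLS5 was not called without mock replicates 1, 2 or 3 or estradiol replicate 1 of 12 h or mock replicate 2 or estradiol replicates 2 or 3 of 24 h (adjusted p 0.0651 to 0.128). GSTF9 was not called without mock replicate 3 or estradiol replicate 1 of 12 h or mock replicate 2 or estradiol replicate 1 of 24 h (adjusted p 0.0768 to 0.0914). NDA1 was not called without mock replicates 1 or 3 or estradiol replicates 1 or 2 of 12 h or mock replicate 2 or estradiol replicates 1, 2 or 3 of 24 h (adjusted p 0.0549 to 0.127). CAB2 was not called without mock replicates 1 or 3 or estradiol replicates 1 or 3 of 12 h or mock replicates 1 or 2 or estradiol replicates 1 or 3 of 24 h (adjusted p 0.0573 to 0.140). With only the 12 libraries in the fit, GSTF9, NDA1 and CAB2 were not called (adjusted p 0.0609, 0.0926 and 0.126), and limma-voom did not call CAB2 (0.0713). The count of 12 such genes was 4 to 7 without any 1 of mock replicates 1, 2 and 3 and estradiol replicate 1 of 12 h and estradiol replicates 2 and 3 of 24 h, and 28 without estradiol replicate 3 of 12 h.

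Besides those of NHP and jasmonate synthesis, the lists of at least 10 tested genes with no call for the change were the aliphatic glucosinolates (19 genes), xenobiotic detoxification (25), growth-linked cell wall proteins (35), plasma membrane aquaporins (13), the morning clock (11), the day and evening clock (19), reference genes (11) and phloem and xylem markers (12). Over all genes tested 2.12% were called, a share at which lists of these sizes can hold no call. Of the detoxification genes, 16 of 25 were higher at 12 h (4.64% of all genes) and 10 at 24 h (8.43%), with medians of 1.05 and 1.03. Of the aliphatic glucosinolate genes 4 were lower at 12 h (5.07% of all genes) and 12 at 24 h (6.54%), with medians of −0.20 and −0.31, and a larger effect at 24 h was not shown for any of them. A missing call does not show equal effects.

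The 7 genes called in opposite directions at the 2 times were SOT16, CYP83B1, COR15B, LTP1, LACS3, AMI1 and AT1G13930. LACS3 (AT1G64400), a long-chain acyl-CoA synthetase, had an effect of 0.46 at 12 h and −0.39 at 24 h (−0.85 ± 0.18 SE, adjusted p 0.0142). AMI1 (AT1G08980), an amidase, was the 1 gene that was lower at 12 h and higher at 24 h, with an effect of −0.18 at 12 h and 0.25 at 24 h (0.43 ± 0.085 SE, adjusted p 0.00887). AT1G13930, named after its values were seen, was at 253 ± 37.4 and 310.0 ± 12.8 CPM at 12 h and 509 ± 47.6 and 386 ± 7.12 CPM at 24 h in mock and estradiol (adjusted p 0.00368). Their number was 11 without mock replicate 1 of 24 h and 0 to 4 without mock replicate 2 or 3 or estradiol replicate 1 or 2 of 12 h, or mock replicate 2 or estradiol replicate 1, 2 or 3 of 24 h. RHA3A (AT2G17450), a RING-type ubiquitin ligase, was called at neither time but for the change (0.44 ± 0.11 SE, adjusted p 0.0422). The RHA3A call was lost without the low-count filter (adjusted p 0.0602), with DESeq2 (0.0586), with limma-voom (0.134) and without mock replicates 1 or 2 or estradiol replicates 1 or 2 of 12 h or mock replicates 1, 2 or 3 or estradiol replicates 1 or 2 of 24 h (adjusted p 0.0619 to 0.183).

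For the change of effect, 1 of 9 epidermal markers and none of 8 guard cell, 7 mesophyll and 12 phloem and xylem markers was called, beside 2.12% of all genes. Among epidermal markers LTP1 (AT2G38540), a lipid transfer protein of the cuticle, was higher under estradiol at 12 h and lower at 24 h, with an effect of 0.30 at 12 h and −0.34 at 24 h (−0.64 ± 0.11 SE, adjusted p 0.00319), and the other 8 were not called for the change. At 24 h the summed epidermal markers were at 1660 to 1749 CPM in estradiol and 1912 to 2365 CPM in mock libraries, and at 12 h at 624 to 689 and 650 to 678 CPM. Of the 9 epidermal markers 5 were called lower under estradiol at 24 h (6.54% of all genes), and of the 7 mesophyll markers 3 at 12 h (5.07%). At 24 h 1 of 8 guard cell and 2 of 12 phloem and xylem markers were also called lower. The summed guard cell markers were at 86.7 to 98.5 CPM in estradiol and 102 to 107 CPM in mock libraries at 24 h, without overlap, and at 82.0 to 85.4 and 85.1 to 91.5 CPM at 12 h. The summed phloem and xylem markers did not overlap at either time, at 478 to 485 CPM in estradiol and 489.7 to 511 CPM in mock at 12 h, and at 523 to 552 and 591 to 609.9 CPM at 24 h. Most of each phloem and xylem sum came from SUC2 and PP2-A1. None of the 12 markers was called at 12 h, and their median effect was 0.011 at 12 h and −0.17 at 24 h (log2). The summed mesophyll markers did not overlap at 12 h, at 20961 to 22302 CPM in estradiol and 23457 to 24991 CPM in mock, and overlapped at 24 h, at 63904 to 71225 and 68897 to 80166 CPM. RBCS1A was the largest part of the mesophyll sums at 12 h. At that time RBCS1A, CA1, CA2 and RCA were lower under estradiol without overlap, and LHCB3 and LHCB6 overlapped. CAB3 went the other way at 12 h, at 988 to 1287 CPM in estradiol and 823 to 976 CPM in mock. The part of cell composition in the results was not tested.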

How the data were processed

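PolyA-selected leaf RNA was sequenced in 18 libraries (TruSeq kit, per the labels' protocols), 12 of which form the comparison. Raw read counts per gene were deposited by the authors in 1 table; per the submitters' processing notes reads were checked with FastQC 0.11.2, aligned with TopHat2 2.0.10 to TAIR10 and counted with HTSeq, whose version, strand setting and annotation release were not given in the sources used here. Without a stated strand setting, reads of overlapping antisense genes cannot be told apart. Of the total, 5.87 to 6.71% stood in 5 class rows that name no gene and were left out.

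From these counts edgeR 4.0.16 (R 4.3.3) fitted 1 quasi-likelihood model with 6 group coefficients to all 18 libraries, after filterByExpr (minimum count 10, minimum total 15) and TMM scaling, leaving 19227 of 32678 genes. Changes are log2 fold changes with Benjamini-Hochberg adjusted p below 0.05, and the SE is the fold change over the root of F. TMM factors were 1.24 to 1.28 at 12 h and 0.795 to 0.884 at 24 h, so levels between times rest on that scaling, while the change of effect compares ratios within a time. Replicate libraries differed by more than sampling noise. On simulated counts for 19141 genes, 200 of them drawn to be changed, the test recovered 44.8%, 73.1% and 90.9% of 1.5-, 2- and 4-fold changes, with 4.79% of calls false. Counts were drawn independently with the fitted spread of each gene. The simulation held no shifts shared by a whole library, so these shares need not hold in the real data.

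The members and gene lists were chosen with earlier results of these data known. Genes named are PAD4, EDS1 and other key genes of the pathway, the 12 most positive and 12 most negative called changes with a symbol and a mean log2 CPM of at least 1, the 5 smallest p of each class and up to 4 called members of each list. Symbols came from a RefSeq gene table (TAIR10.1), which held 31912 of the loci and 651 of 709 list entries; 58 entries were left out. Alternatives were other scalings (DESeq2 1.42.0 size factors, upper quartile), no filter or 1 CPM in 3 libraries, DESeq2, limma-voom (limma 3.58.1), a replicate block, the 12 libraries alone, and each library left out in turn. A planned search for promoter motifs was not carried out.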

Additional observations from a re-analysis of the deposited data

Results flagged for a closer look

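The effect of estradiol differed between 12 h and 24 h in the test of the difference itself for 356 genes with a more positive and 51 with a more negative change. Among them 7 genes were called in opposite directions at the 2 times. SOT16 changed by −0.92, CYP83B1 by −0.81, COR15B by −1.41, LACS3 by −0.85, LTP1 by −0.64 and AT1G13930 by −0.69, each from higher under estradiol at 12 h to lower at 24 h. AMI1 changed by 0.43, from lower to higher. All groups had 3 libraries, so single libraries were not screened for outliers.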

How the results depend on the processing

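The counts of more positive changes ran from 331 to 477 and those of larger rises from 278 to 423 over the alternatives that kept every library. With DESeq2 the count of more negative changes was 88, of smaller rises 25, of larger falls 54 and of smaller falls 52. With only the 12 libraries in the fit more negative changes numbered 32, smaller rises 7 and larger falls 21, the genes of opposite direction numbered 2 and the genes lower at 24 h 634. Without any 1 library, more positive changes ranged from 204 to 379, more negative from 26 to 82, larger rises from 188 to 360, smaller rises from 4 to 28, larger falls from 16 to 57, smaller falls from 6 to 35 and opposite directions from 0 to 11. At 12 h the higher genes then ranged from 270 to 1070 and the lower from 281 to 1083, and at 24 h the lower from 551 to 1370. Counting as larger only the rises whose difference in CPM was also larger at 24 h left 278, an alternative chosen after seeing the data. Of 1740 values of named genes under alternatives, 1549 kept their direction and side of the threshold, 174 lost the call, 2 gained it and 15 changed sign. The sign changes were in uncalled genes: VSP2 ranged from −0.064 to 1.40, EDS5 from −0.17 to 0.26 and FMO1 from −2.69 to 0.39 without any 1 library, and EDS5 was 0.016 with DESeq2 and 0.029 with the 12 libraries alone. The cause of these shifts was not tested.

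Pairing of samples by replicate number was not shown. Over 12 pairs of same-numbered libraries the correlation of deviations ran from −0.213 to 0.209, 3 pairs were over 0.1 and 3 libraries correlated best with their own number. Those pairs were mock and estradiol replicates 1 (0.199) and 3 (0.195) of 12 h and replicates 2 of 24 h (0.209). With 3 libraries per group such correlations cannot exclude a pairing. With the replicate block 374 genes were called, 357 of them among the 407 of the unblocked fit; smaller rises then numbered 7 and opposite directions 3. Under the block the calls of MCM2, JAM2, YLS5, CAB2 and RHA3A were lost (adjusted p 0.0645, 0.0718, 0.056, 0.0713 and 0.0561). Genes with few reads, such as NIMIN1 in mock leaves at 24 h, limit the precision of their fold changes.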
